A study of Mus musculus with 8 samples.

Results

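The carboxylesterases described here are 10 mouse genes, Ces1b, Ces1c, Ces1d, Ces1e, Ces1f, Ces1g, Ces2a, Ces2c, Ces2e and Ces3a, measured in liver among 27453 listed genes. They were picked by symbol, and the reads of their transcripts were summed to 1 count per gene. All 10 passed the filter on low counts and entered the tests across 6759 genes. Another 9 genes of the family were listed, of which Ces3b and Ces2g had enough reads to be tested. The other 7 had almost none over all 8 libraries, with 7 reads for Ces4a, 3 each for Ces2b and Ces2h, 1 for Ces1a and 0 for Ces1h, Ces2f and Ces5a.

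Native polyadenylated RNA from 8 livers of C57BL/6JN mice, an inbred strain, was read molecule by molecule on nanopores (direct RNA sequencing), and no genetic change or drug is recorded for any animal. The groups were O-titled females (replicates 3 and 4), O-titled males (replicates 1 and 2), Y-titled females (replicates 3 and 4) and Y-titled males (replicates 1 and 2), 2 libraries each, every one from its own animal. The study asks how liver transcripts differ between old and young mice, of about 18 and 2 months by the series text. The age field, however, reads 12 weeks on O-titled libraries and 80 weeks on Y-titled ones, so the groups are named by title and every fold change is O-titled over Y-titled, with no age attached to a direction.

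Carboxylesterases are serine hydrolases that split esters, amides and thioesters of drugs, pesticides and lipids, and liver is their main site of synthesis. Most are held inside the endoplasmic reticulum by a short signal at the carboxyl terminus, where several hydrolyse stored triglyceride for the assembly of very low density lipoprotein, while others are secreted into plasma. The mouse has many more such genes than the human, because the Ces1 and Ces2 groups multiplied in tandem. Human CES1 and CES2 clear many ester drugs and prodrugs.

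All 10 genes lie on chromosome 8 of mm10 in 2 clusters. A gap of 11198 kb runs from the end of Ces5a, a family gene outside the 10, to the start of Ces2a. The 6 Ces1 genes lie on the minus strand between position 93056728, the near end of Ces1b, and position 93337308, the far end of Ces1g, in the order of their letters. On the plus strand follow Ces2a, from 104734003, Ces2c, Ces2e and then Ces3a, at 105048601 to 105058413. Ces3b, which is not among the 10, starts 25.3 kb beyond the end of Ces3a.

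The last codons of each coding sequence are shown because they encode the carboxyl terminus of the protein, where the retention signal lies. They were read from the GENCODE M21 transcript with the most reads, 5′ to 3′ on the coding strand, with the last 4 codons in capitals and the stop codon in lower case.
Ces1b: AGAGAACACAAAtga
Ces1c: ACAGAACACAAAtga
Ces1d: CATGTTGAGCTCtga
Ces1e: CACACTGAGCTGtga
Ces1f: CACAATGAGCTGtga
Ces1g: CATGTTGAACTGtga
Ces2a: CATGCAGAGCTGtag
Ces2c: CACAGGGAGCTTtag
Ces2e: CACAAAGAGTTGtag
Ces3a: CCAGAGGAGCTCtga
Ces3b: CCAGAGGAGCTCtga
In 7 of the 10 genes these codons were a histidine codon, any codon, a glutamate codon and a leucine codon, the arrangement known for retained carboxylesterases. Ces1b and Ces1c ended on a lysine codon in place of leucine. Ces3a and Ces3b shared the same last 15 bases, with a proline codon where those 7 have histidine.

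Libraries held 545171 to 2593200 mapped reads. The floor of 3 reads corresponds to 1.16 to 5.50 CPM (counts-per-million, here of mapped reads), and every one of the 10 genes had at least 11 reads in every library. The 7 measured hepatocyte markers summed to 73575 to 99975 CPM in O-titled livers, and 68811 to 114036 CPM in Y-titled libraries. None passed a test between titles or sexes at an edgeR adjusted p of 0.05. Between titles 3 of the 7 had an edgeR unadjusted p under 0.05, beside 16.2% of all tested genes, and between sexes 0 did. The median log2 fold change of the 7 between titles was -0.10. Of the 5 pancreatic acinar markers, Ctrb1, Pnlip and Cpa1 were at 0 reads in every library. The other markers of that list, Prss2 and Cela1, had reads. The list summed to 28.3 to 38.2 CPM in O-titled livers, and 25.0 to 36.6 CPM in Y-titled livers. Libraries of the same sex and title differed beyond counting noise in every case (chi-square per degree of freedom 3.92 to 10.3), so none was treated as a repeat. CPM given below for single genes are of reads in tested genes, scaled by TMM, and errors of means are SD.

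Ces1c, a plasma esterase of rodents, was the most abundant member. Per kilobase of transcript it averaged 1265 ± 305 CPM over the 8 libraries, which stood clear of Ces3a, the next, at 423 ± 230 CPM per kb. Below it came Ces1d at 258, Ces1f at 206, Ces2a at 142, Ces2e at 84.5, Ces1g at 77.8, Ces1e at 48.7, Ces1b at 32.5 and Ces2c at 13.1 CPM per kb. Ranges over libraries overlapped at each of the other 8 steps between neighbours. Within libraries, however, Ces1f exceeded Ces2a and Ces2a exceeded Ces2e per kilobase in 8 of 8. Ces1b exceeded Ces2c in CPM in 7 of 8, and in Y-titled replicate 1 the 2 genes tied at 76 reads each.

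**Figure D1:**
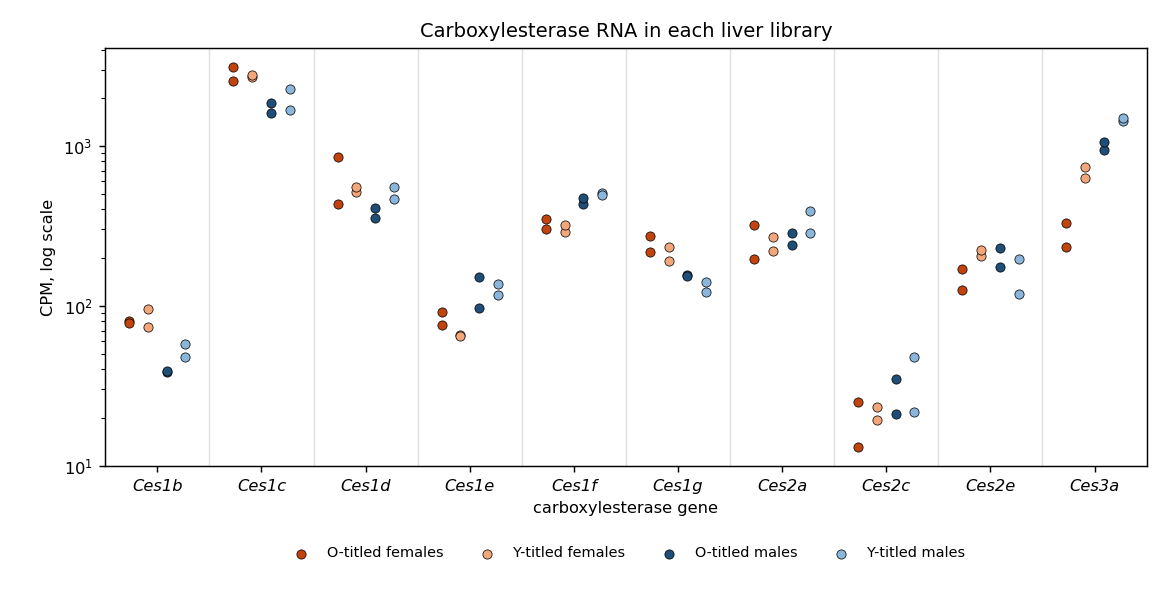
CPM on a log scale (vertical axis) of each of the 10 genes (horizontal axis) in 8 liver libraries, each point 1 library, coloured by title and sex. Ces1c lies above all others in every library, and the Ces3a points descend in the order Y-titled males, O-titled males, Y-titled females, O-titled females.

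The 10 genes took a similar share of all mapped reads in both titles, 0.417% to 0.573% in O-titled and 0.463% to 0.514% in Y-titled libraries. Females had 0.454% to 0.573% and males 0.417% to 0.514%, again with overlap. The make-up of that share varied. Ces3a supplied 7.65% and 4.25% of the reads of the 10 genes in O-titled females and 12.8% and 13.9% in Y-titled females. In O-titled males it supplied 21.8% and 23.7%, and in Y-titled males 28.5% and 26.9%. Ces1c supplied 52.3% to 58.6% in females and 33.3% to 42.9% in males.

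**Figure D2:**
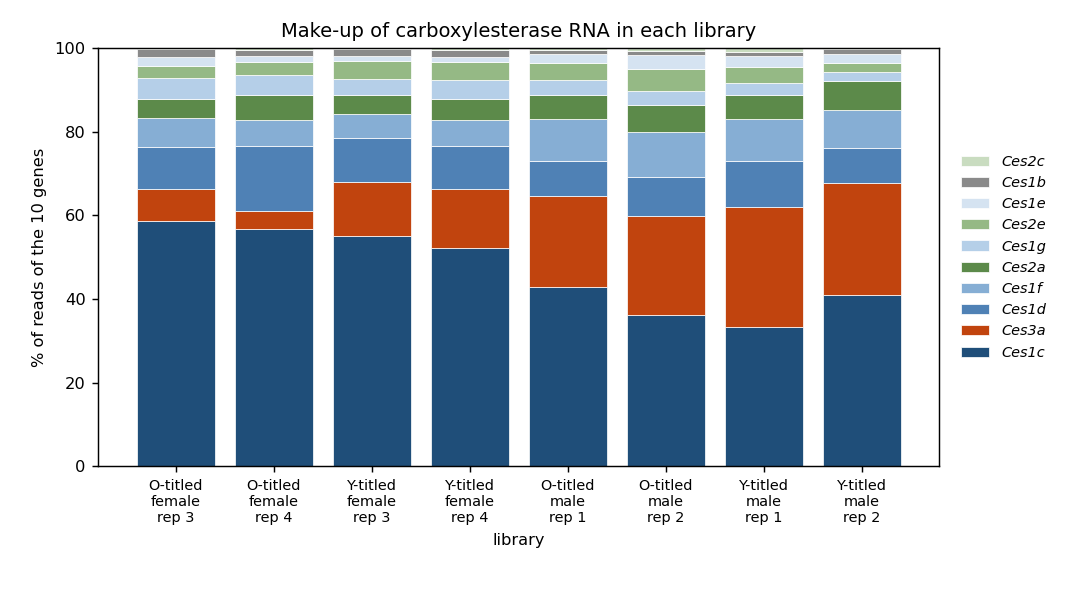
Percentage of the reads of the 10 genes (vertical axis, 0 to 100) that each gene supplied in each library (horizontal axis), with O-titled females, Y-titled females, O-titled males and Y-titled males from left to right. The Ces3a band is widest in Y-titled males, at 28.5% and 26.9%, and narrowest in O-titled females, at 7.65% and 4.25%.

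Between O-titled and Y-titled livers, Ces3a was the member that changed. Ces3a, older name Es31, is a liver esterase whose substrates are less studied than those of the Ces1 group. It had 330 and 233 CPM in O-titled females and 937 and 1051 CPM in O-titled males, against 628 and 735 CPM in Y-titled females and 1431 and 1489 CPM in Y-titled males. Within each sex both O-titled libraries lay below both Y-titled ones, whereas over both sexes the titles overlapped. With sex in the model the level fell to 0.532 of the Y-titled level, a log2 fold change of -0.91 ± 0.16 (SE, n = 4 livers each, edgeR quasi-likelihood test, adjusted p = 0.00352).

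That is 1 of 10 members called lower and 0 called higher, beside 4.01% of all tested genes called in either direction and 1.92% called lower. The count rests on a single gene. The median log2 fold change of the 10 genes was -0.09, against -0.00 over all tested genes. No member had O-titled and Y-titled values wholly apart when the sexes were pooled, and 8.71% of all genes did. In RNA from whole liver, fewer cells of a type and less RNA per cell cannot be told apart.

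Ces3b, the neighbour of Ces3a, showed a difference in the same direction that the main test did not call. It had 54.7 and 114 CPM in O-titled females and 208 and 263 CPM in O-titled males, against 344 and 308 CPM in Y-titled females and 380 and 396 CPM in Y-titled males. All 4 O-titled values were below all 4 Y-titled values. The log2 fold change was -1.31 ± 0.33 (SE, n = 4 each), with an adjusted p of 0.110 in edgeR, 0.000153 in DESeq2 and 0.0117 in limma voom. Without O-titled replicate 3, the lowest library, it was -1.02 with an adjusted p of 0.00104 in edgeR. Those 3 were the settings of 15 that called it, and in the others the adjusted p reached 0.271.

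**Figure D3:**
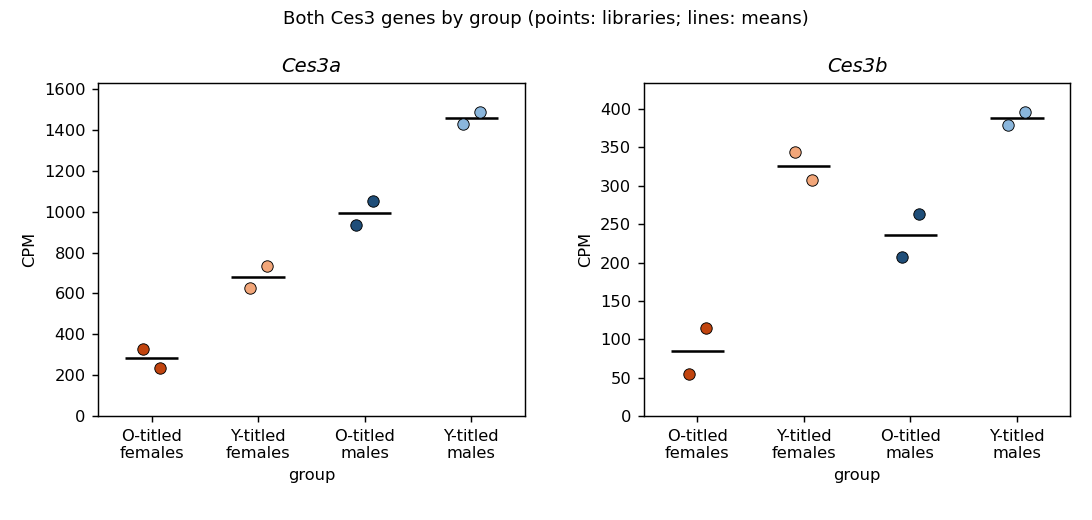
CPM (vertical axes, from 0) of Ces3a on the left and Ces3b on the right in the 4 groups of title and sex (horizontal axes), with 1 point for each library and a line at the mean of 2. For Ces3a the group means are 282, 682, 994 and 1460 CPM from left to right, and for Ces3b they are 84.4, 326, 235 and 388 CPM.

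Taken by sex, Ces3a averaged 282 ± 68.4 CPM in O-titled females and 682 ± 75.5 CPM in Y-titled females (n = 2 each). Within females it fell, with a log2 fold change of -1.28 ± 0.17 (SE, edgeR adjusted p = 4.75e-05), as 1 of 10 members called, where 5.47% of all genes were called and 2.74% called lower. In males it averaged 994 ± 80.5 CPM in O-titled livers, and 1460 ± 40.6 CPM in Y-titled livers, a log2 fold change of -0.56 ± 0.16 (edgeR adjusted p = 0.124). Within males edgeR, DESeq2 and limma voom called 0 of 10 members, beside 1.26% of all genes called in edgeR. Ces3a alone had an edgeR unadjusted p under 0.05, 1 of 10, as did 9.45% of all genes. Of 14 alternatives 3 called the male value, the lowest edgeR adjusted p being 0.0187 in a setting that kept all 8 libraries. The other 2 left out O-titled replicate 3 or 4, both females. In such fits the lone library left in a group is assumed to vary like the others.

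For a title difference that is not the same in females as in males, edgeR, DESeq2 and limma voom each called 0 of 10 members, beside 0.385% of all genes in edgeR. For Ces3a the female minus male difference in log2 fold change was -0.72 ± 0.23 (edgeR unadjusted p = 0.00533, adjusted p = 0.299). For Ces2e it was -0.82 ± 0.31 (unadjusted p = 0.0202, adjusted p = 0.460), and no other member had an unadjusted p under 0.05. Of all genes, 8.46% had an edgeR unadjusted p under 0.05 for this difference. Ces3b fell within females, with a log2 fold change of -1.93 ± 0.28 (adjusted p = 0.00449). That call was lost without Y-titled replicate 3, at adjusted p = 0.0597. Within males its value was -0.73 ± 0.27 (adjusted p = 0.388), and 3 of 14 alternatives called it, namely no filter on low counts (adjusted p = 0.000939) and leaving out O-titled replicate 3 or 4 (0.0118 and 0.0113). Its difference between the sexes was -1.20 ± 0.39 (adjusted p = 0.410), which 2 of 14 called, no filter on low counts (0.000234) and leaving out O-titled replicate 4 (0.000822).

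Of the 6 Ces1 members edgeR called 0 between titles, beside 4.01% of all genes called, and 0 were called in any of the 15 alternatives. At an unadjusted p under 0.05 there were 0 of 6, beside 16.2% of all genes. Log2 fold changes of the 6 ran from -0.23 for Ces1b to 0.21 for Ces1g. Ces1d, also named triacylglycerol hydrolase, releases stored fat for lipoprotein assembly. It averaged 512 ± 228 CPM in O-titled livers, and 522 ± 40.6 CPM in Y-titled livers (n = 4 each), and O-titled replicate 4, a female, stood alone at 850 CPM. Without O-titled replicate 3 it was called within females, at 0.69 (adjusted p = 0.0203), as was its difference between the sexes, at 1.12 (adjusted p = 0.0280). Ces1g, a triglyceride hydrolase whose loss raises blood lipids in mice, had the largest positive value, with 200 ± 55.9 CPM in O-titled livers, and 172 ± 50.6 CPM in Y-titled livers (adjusted p = 0.417).

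Of the 3 Ces2 members edgeR likewise called 0 between titles, beside 4.01% of all genes. At an unadjusted p under 0.05 there were 0 of 3, beside 16.2% of all genes, and the 15 alternatives called 0. With 3 genes, a count of 0 is near those shares. Mouse Ces2 enzymes act on drugs and acylglycerols in liver and gut. Ces2a averaged 261 ± 55.1 CPM in O-titled livers, and 291 ± 72.6 CPM in Y-titled livers (n = 4 each), and Ces2e, close to human CES2, averaged 176 ± 43.4 CPM in O-titled livers, and 185 ± 45.9 CPM in Y-titled livers. Ces2c, an acylcarnitine and glyceride hydrolase, had the most negative Ces2 value, a log2 fold change of -0.41 ± 0.27 (SE, edgeR adjusted p = 0.511). Its 4 O-titled libraries held 13.0 to 34.9 CPM and its 4 Y-titled libraries 19.3 to 47.8 CPM. Without Y-titled replicate 1, the highest, the log2 fold change was -0.0034.

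**Figure D4:**
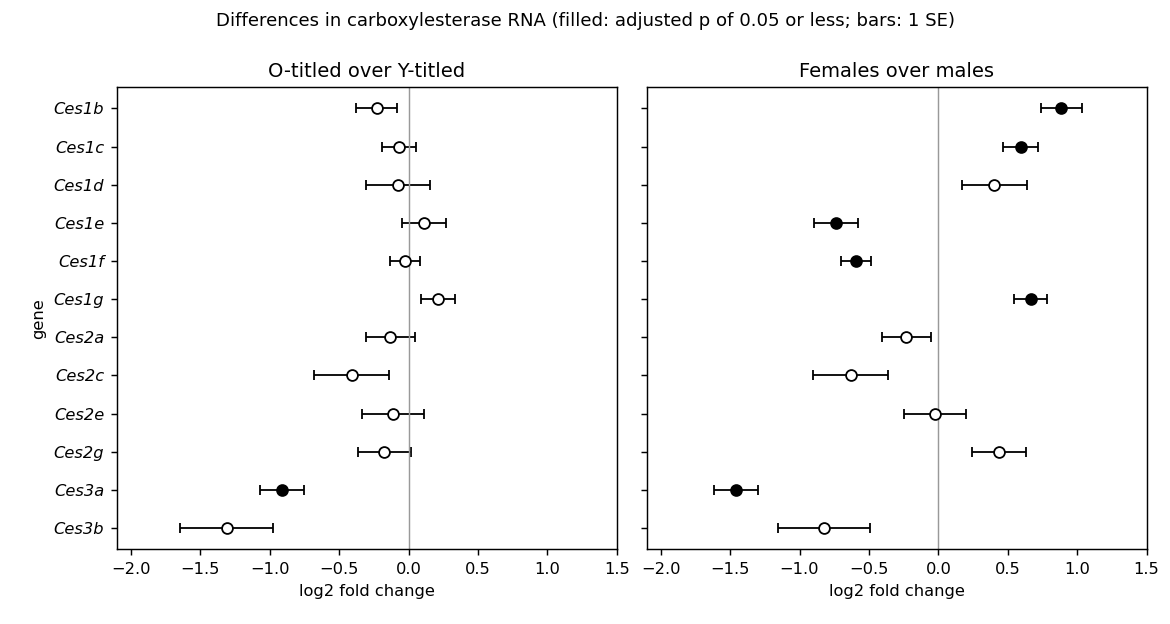
Log2 fold change (horizontal axes) of the 10 genes plus Ces2g and Ces3b (vertical axis), O-titled over Y-titled on the left and females over males on the right, with bars of 1 SE and filled circles at an edgeR adjusted p of 0.05 or less. On the left Ces3a is filled, at -0.91, and on the right Ces1b, Ces1c and Ces1g are filled above 0 and Ces1e, Ces1f and Ces3a below 0.

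Between the sexes 6 members were called, or 3 when all libraries were thinned to equal depth, against 1 between titles. Of the 10 members, 3 were higher and 3 lower in females than in males at an edgeR adjusted p of 0.05 or less, while 1.81% of all tested genes were called higher and 1.15% lower, 2.96% in all. Those 6 members also had all 4 female values on the same side of all 4 male values, which held for 6.52% of all genes, 3.15% with females higher and 3.37% with females lower. The median log2 fold change of the 10 was -0.13, against -0.00 over all genes, and the called members ran in both directions.

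On the log2 scale Ces3a had the widest gap, with 482 ± 238 CPM in females and 1227 ± 274 CPM in males (n = 4 each). Its level in females fell to 0.365 of the male level, a log2 fold change of -1.46 ± 0.16 (adjusted p = 4.58e-05). The female and male values did not overlap, since the highest female, a Y-titled liver, had 735 CPM and the lowest male, an O-titled liver, had 937 CPM. Ces3b averaged 205 ± 142 CPM in females and 312 ± 91.1 CPM in males (log2 fold change -0.82 ± 0.33, adjusted p = 0.397), and its sexes overlapped.

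Among the Ces1 genes, Ces1b, Ces1c and Ces1g were higher in females. Ces1c had 2527 and 3116 CPM in O-titled females and 2707 and 2756 CPM in Y-titled females, against 1843 and 1605 CPM in O-titled males and 1673 and 2265 CPM in Y-titled males. Its log2 fold change was 0.59 ± 0.12 (SE, adjusted p = 0.0112). Ces1c lost the call without O-titled replicate 2, O-titled replicate 4 or Y-titled replicate 1, at adjusted p = 0.0660, 0.0513 and 0.0703.

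Ces1b, a little-studied gene next to Ces1c, had 79.9 and 78.4 CPM in O-titled females and 73.5 and 96.0 CPM in Y-titled females, against 38.4 and 39.0 CPM in O-titled males and 47.8 and 57.4 CPM in Y-titled males. Females were 1.85-fold higher, a log2 fold change of 0.89 ± 0.15 (adjusted p = 0.00162). Every female liver exceeded every male liver in both titles. With libraries thinned to equal depth the log2 fold change was 1.08 and the call was lost (adjusted p = 0.181).

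Ces1g had 216 and 272 CPM in O-titled females and 191 and 234 CPM in Y-titled females, against 156 and 155 CPM in O-titled males and 140 and 123 CPM in Y-titled males. Its log2 fold change was 0.66 ± 0.12 (SE, adjusted p = 0.00329), and the male libraries lay close together. Thinned to equal depth it was 0.55 and not called (adjusted p = 0.181). Ces1d, its closest relative by coding sequence, at 81.6% identity, averaged 587 ± 182 CPM in females and 447 ± 85.7 CPM in males with overlap (log2 fold change 0.40 ± 0.23, adjusted p = 0.590).

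Ces1e and Ces1f were lower in females, opposite to Ces1b, Ces1c and Ces1g in the same cluster. Ces1e, or egasyn, holds beta-glucuronidase in the endoplasmic reticulum of mouse liver. It had 91.2 and 75.6 CPM in O-titled females and 66.1 and 64.6 CPM in Y-titled females, against 96.5 and 150 CPM in O-titled males and 136 and 117 CPM in Y-titled males. The log2 fold change of Ces1e was -0.74 ± 0.16 (SE, adjusted p = 0.0144), and the nearest female and male values were 91.2 and 96.5 CPM. This call was lost in 4 of the 8 fits that leave out a library, namely O-titled replicate 2 and Y-titled replicates 1, 3 and 4, with adjusted p values of 0.0573 to 0.0988. It was also lost at equal depth, with a log2 fold change of -0.57 (adjusted p = 0.337).

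Ces1f, a second triacylglycerol hydrolase, had 304 and 349 CPM in O-titled females and 288 and 322 CPM in Y-titled females, against 433 and 473 CPM in O-titled males and 507 and 493 CPM in Y-titled males. Its log2 fold change was -0.59 ± 0.11 (SE, adjusted p = 0.00358). Ces1f and Ces3a were called in all 14 other settings tried.

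Along the Ces1 cluster, from Ces1b to Ces1g, the log2 fold changes of females over males were therefore 0.89, 0.59, 0.40, -0.74, -0.59 and 0.66. The 2 genes that fell lie side by side, and Ces1d, which was not called, and Ces1g flank them.

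The 3 Ces2 members showed no called difference between the sexes, beside 2.96% of all genes called. Ces2a had 252 ± 56.2 CPM in females and 300.5 ± 64.6 CPM in males, and Ces2e 181 ± 43.0 CPM in females and 180 ± 47.0 CPM in males (n = 4 each). Ces2c had 20.2 ± 5.39 CPM in females and 31.4 ± 12.7 CPM in males (log2 fold change -0.63 ± 0.27, edgeR unadjusted p = 0.0341, adjusted p = 0.346). Ces2c is the least read of the 10, with 11 to 76 reads per library, and without single libraries its value ran from -0.91 to -0.27. Ces2g, tested beside them, had a log2 fold change of 0.44 ± 0.19 (adjusted p = 0.350).

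Ces1b and Ces1c were the most alike of the 10 in coding sequence, at 88.9% identity, with a longest shared stretch of 118 bases, and both were higher in females. The 250 bases before each transcription start are shown because these neighbours had the same direction between the sexes and RefSeq (GRCm38.p6) lists a start for both. Capitals mark the longest run that the windows share, 58 bases. The Ces1b window is chr8:93080018-93080267 and the Ces1c window is chr8:93131284-93131533, both on the minus strand and 5′ to 3′ toward the start.
Ces1b: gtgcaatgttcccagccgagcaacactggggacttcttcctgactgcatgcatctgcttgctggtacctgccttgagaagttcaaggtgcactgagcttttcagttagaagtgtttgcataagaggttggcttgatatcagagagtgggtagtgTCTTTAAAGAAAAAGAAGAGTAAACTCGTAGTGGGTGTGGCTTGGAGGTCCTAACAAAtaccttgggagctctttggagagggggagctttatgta
Ces1c: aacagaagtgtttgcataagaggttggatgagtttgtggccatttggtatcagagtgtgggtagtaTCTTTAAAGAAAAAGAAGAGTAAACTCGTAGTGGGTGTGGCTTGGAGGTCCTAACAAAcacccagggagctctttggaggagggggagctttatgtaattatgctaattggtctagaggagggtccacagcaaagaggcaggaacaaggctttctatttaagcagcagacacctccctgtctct
The run begins 96 bases before this Ces1b start and 184 bases before the Ces1c start. RefSeq lists another Ces1b start further downstream, whose window overlaps the annotated gene and is not shown. Where they aligned, 137 of 144 bases matched, or 95.1%.

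Within the 250-base windows, 6 sets of letters named for factors of liver promoters were searched on both strands. CAAAGTNC, a form bound by the hepatocyte factor HNF4A, occurred in Ces2a and Ces2e, beginning 72 and 82 bases before the start, and in 3.40% of 32851 mouse promoters. TATAAA, the TATA box, occurred in the direction of the coding strand in Ces3b. In Ces1g only its reverse complement, TTTATA, occurred, in a window that overlaps the annotated gene. On either strand TATAAA occurred in 12.4% of promoters. ATTGAT (HNF6), TTCNNNGAA (STAT5), TTCCTNGAA (BCL6) and the HNF1 palindrome were not found in the windows of Ces1b, Ces1c, Ces1e, Ces1g, Ces2a, Ces2c, Ces2e, Ces2g or Ces3b. They occurred in 6.72%, 7.02%, 1.31% and 0.00913% of promoters. Every match to TTCCTNGAA is also a match to TTCNNNGAA. The table used has no entry for Ces1d, Ces1f and Ces3a.

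Reads of near-identical genes may be placed on the wrong gene, and how such reads were handled is not given in the sources used here. Ces3a and Ces3b were 95.3% identical over their coding sequences, with a longest shared stretch of 194 bases, and both values are uncertain to the extent that reads were split between them. The reads of Ces3b per 100 reads of Ces3a were 16.6 and 48.9 in O-titled females and 22.2 and 25.1 in O-titled males. They were 54.7 and 41.9 in Y-titled females and 26.5 and 26.6 in Y-titled males, so the 2 genes did not keep a fixed ratio. Ces1b had 2.52 to 3.49 reads per 100 reads of Ces1c in females and 2.09 to 2.86 in males, with overlap between the sexes. Whether reads of the far more abundant Ces1c contributed to the Ces1b value was not tested. Every other pair among the 12 genes compared was at most 85.1% identical, the value for Ces2c and Ces2g.

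Because each read is a single RNA molecule, the files also show which transcript a read was placed on. The reads of Ces1b, Ces1c, Ces1d, Ces1f, Ces1g and Ces2c each fell on 1 listed transcript. For Ces1e, Ces2a, Ces2e and Ces3a, 2 transcripts were listed, and the more abundant took 86.2%, 84.7%, 80.4% and 79.9% of the pooled reads. In Ces3a the less abundant transcript lacks an internal exon of 141 bases and otherwise differs by 2 bases at its start. It held at most 22.3% of Ces3a reads in the O-titled libraries and 18.5% to 21.8% in the Y-titled libraries. Those shares stayed close together while the level of the gene differed several-fold between groups.

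For Ces2e the less abundant transcript, whose last exon runs through the last intron of the main transcript, ranged from 12.9% to 26.4% over the libraries. For Ces1e it ranged from 10.2% to 15.7% and for Ces2a from 11.6% to 17.4%. No family gene passed the test of transcript usage (edgeR diffSpliceDGE, Simes p values) in either comparison. Among all 1236 genes tested, 0 were called (0%) between titles and 0 (0%) between sexes, and 0 of 5 family genes had an unadjusted p under 0.05. The lowest was 0.183, for Ces3b between the sexes.

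**Figure D5:**
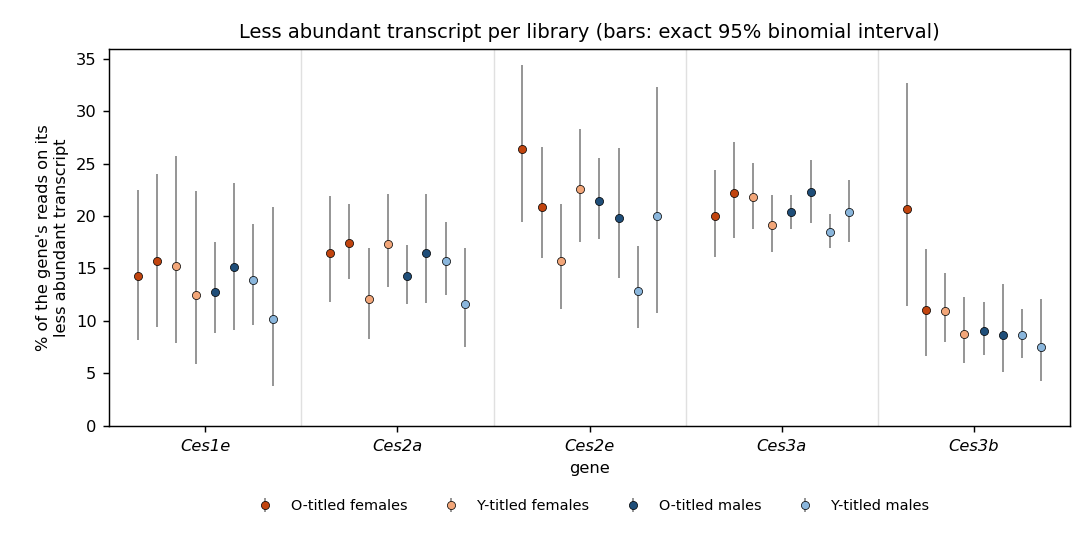
Percentage of a gene's reads placed on its less abundant transcript (vertical axis) for 5 family genes (horizontal axis) in each of the 8 libraries, coloured by title and sex, with exact 95% binomial intervals that cover counting error only. The Ces3a points lie between 18.5% and 22.3% in all libraries, and the widest intervals belong to libraries with few reads of the gene.

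The less abundant transcripts of Ces3a and Ces2a were read mostly as short molecules. Reads placed on that of Ces3a had a median length of 786 to 866 bases per library, against 1777 to 2001 bases for the main transcript. From their 3′ ends the Ces3a transcripts are the same for 964 bases, more than the typical length of those short reads. For Ces2a the medians were 609 to 692 bases against 1750 to 1831 bases, with 983 bases shared up to the first difference in splicing. Reads that lie within a shared stretch cannot tell the transcripts apart, and how far such reads set the shares of Ces2a and Ces3a was not tested. The less abundant Ces2e transcript had median lengths of 1993 to 2062 bases. That of Ces1e had 1603 to 2020 bases in the 6 libraries with at least 10 reads on it, and 1296.5 bases from 6 reads in Y-titled replicate 2. Ces1e medians of up to 2020 bases exceed the 1883 bases annotated for that transcript, and the reason was not tested.

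Other genes that handle the same lipids and drugs were read from lists. Of 23 tested ester and lipid hydrolases of liver outside the family, 1 fell and 0 rose between titles, a share near the 4.01% of all genes called. The gene that fell was Aadac, an arylacetamide deacetylase that also splits drug esters and triglyceride, with 533 ± 55.3 CPM in O-titled livers, and 741 ± 27.2 CPM in Y-titled livers (log2 fold change -0.48 ± 0.10, adjusted p = 0.0125). The median of that list was -0.16, against -0.00 over all genes. Between the sexes, Cmbl, a hydrolase that activates olmesartan medoxomil, was higher in females (0.51 ± 0.13, adjusted p = 0.0469), and Ephx2, soluble epoxide hydrolase, was lower (-0.50 ± 0.13, adjusted p = 0.0410).

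Of 19 tested genes of triglyceride storage and lipoprotein assembly, 1 rose and 2 fell in O-titled livers, where 2.09% of all genes rose and 1.92% fell. The list median was -0.17, against -0.00 over all genes. Fitm1, which aids lipid droplet formation, rose to 99.8 ± 77.9 CPM in O-titled livers, against 25.0 ± 18.5 CPM in Y-titled livers (log2 fold change 1.83 ± 0.22, adjusted p = 8.68e-05). The lipid droplet coats Plin2 and Plin5 fell, with log2 fold changes of -0.77 ± 0.16 (adjusted p = 0.0150) and -1.09 ± 0.26 (adjusted p = 0.0270). Fitm1 was also lower in females than in males (-2.14 ± 0.21, adjusted p = 8.35e-06), and Tm6sf2, which loads lipid onto lipoprotein, was higher in females (0.84 ± 0.21, adjusted p = 0.0362).

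Among 17 tested nuclear receptors and other factors known to act on carboxylesterase genes, edgeR called 0 between titles, beside 4.01% of all genes. Of the 17, 6 had an unadjusted p under 0.05, beside 16.2% of all genes. Between sexes 1 was called, Nr1i2, the pregnane X receptor, beside 2.96% of all genes, and it had 58.5 ± 7.01 CPM in females and 39.0 ± 6.52 CPM in males (log2 fold change 0.60 ± 0.16, adjusted p = 0.0426). Of 19 tested genes listed as targets of this receptor or the constitutive androstane receptor, carboxylesterases aside, 6 were higher and 0 lower in females. Of all genes, 1.81% were higher and 1.15% lower. The list median was 0.81, against -0.00 over all genes. The 6 included Ugt1a1, a bilirubin conjugating enzyme (0.81 ± 0.11, adjusted p = 0.000197), and Por, the electron donor of microsomal cytochromes P450 (0.97 ± 0.15, adjusted p = 0.000621). Cyp2b13, a drug and steroid hydroxylase with near-identical relatives, had 114 ± 43.6 CPM in females and 0.673 ± 1.35 CPM in males (adjusted p = 0.00329). Slco1a4, a transporter of organic anions, was the other of the first 4 (1.46 ± 0.25, adjusted p = 0.00555). Whether the activity of either receptor differed between the sexes was not tested.

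Between titles, 2 of those 19 genes rose and 0 fell, beside 2.09% and 1.92% of all genes. Por rose to 399 ± 199 CPM in O-titled livers, against 149 ± 41.4 CPM in Y-titled livers (log2 fold change 1.34 ± 0.15, adjusted p = 4.25e-05), and Alas1, the first enzyme of heme synthesis, rose by 1.66 ± 0.27 on the log2 scale (adjusted p = 0.0180). Neither of the 2 tested KDEL receptors, which return retained proteins to the endoplasmic reticulum, was called in either comparison.

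Markers of position in the lobule and of other liver cells were read in the same comparisons. The periportal list median was -0.09 between titles and 2.5e-05 between sexes. Of 6 periportal markers, 1 was called in each comparison, beside 4.01% of all genes between titles and 2.96% between sexes. That marker, Cyp2f2, fell in O-titled livers (-0.93 ± 0.11, adjusted p = 7.81e-05) and was lower in females (-0.68 ± 0.11, adjusted p = 0.00135). The 6 together summed to 2163 to 3601 CPM in O-titled livers, and 2530 to 3911 CPM in Y-titled livers, and to 2530 to 3601 CPM in females and 2163 to 3911 CPM in males. Of 6 pericentral markers, Lect2 was higher in females (0.63 ± 0.16, adjusted p = 0.0443), as 1 of 6 called beside 2.96% of all genes. The pericentral list summed to 3965 to 6528 CPM in females and 3736 to 5747 CPM in males. Between titles edgeR called 0 of the 6, and 2 had an unadjusted p under 0.05, beside 16.2% of all genes. No Kupffer cell marker of 12 tested was called by edgeR between titles, beside 4.01% of all genes. Of the 12, 6 had an unadjusted p under 0.05, beside 16.2% of all genes. The list median was 0.58, and the list summed to 583 to 1832 CPM in O-titled livers, and 688 to 894 CPM in Y-titled livers.

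Among endothelial and stellate cell markers, Fcgr2b (0.62 ± 0.17, adjusted p = 0.0490) and Dcn (0.58 ± 0.12, adjusted p = 0.00956) rose in O-titled livers. They were 1 of 8 and 1 of 7 tested, beside 4.01% of all genes called. An edgeR unadjusted p under 0.05 between titles was held by 1 of 8 endothelial and 4 of 7 stellate markers, beside 16.2% of all genes. Between sexes it was held by 3 of 8 endothelial, 2 of 7 stellate and 2 of 12 Kupffer cell markers, beside 12.3% of all genes. The list medians of females over males were 0.33, 0.20 and 0.22. The endothelial list summed to 239 to 342 CPM in O-titled livers, and 191 to 291 CPM in Y-titled livers, and the stellate list to 308 to 429 CPM in O-titled livers, and 231 to 351 CPM in Y-titled livers. Of 5 red cell genes, Alas2 was lower in females (-2.67 ± 0.20, adjusted p = 1.28e-07), as 1 of 5 called beside 2.96% of all genes. An edgeR unadjusted p under 0.05 between sexes was held by 3 of the 5, and the list median was -0.55. The list summed to 1664 to 2894 CPM in females and 2018 to 4299 CPM in males. The part of these cell types in the Ces3a and Ces1 differences was not tested.

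For each member with a called difference, the tested genes outside the family with the most similar profile were taken by Pearson r of log2 CPM over the 8 libraries, as a description. For Ces3a they were Cdc34 (r = 0.98), Glo1 (0.97) and Hao1 (0.97). For Ces1c they were Cyp2a4 (0.97), Prlr (0.96) and Mbl2 (0.95), and for Ces1b they were Irgm2 (0.96), Cyp2c68 (0.95) and Commd1 (0.95). Ces1g was closest to Ugt1a1 (0.97), Anapc5 (0.97) and AW112010 (0.96). Ces1e was closest to Dcaf8 (0.96), Ttc39c (0.95) and Myo6 (0.95), and Ces1f to Rassf3 (0.98), Ttc39c (0.97) and Cyp4a12a (0.97). The libraries fall into the same groups of sex and title for every gene, so a high r follows wherever a gene differs between the same groups.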

How the data were processed

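Native RNA from 8 mouse livers was sequenced on MinION R9.4.1 flow cells after oligo(dT) selection and ligation of a 5′ adapter, per the labels' protocols. The submitters' processing notes name minimap2 2.24 and the build mm10, and list DESeq2 without saying what it was used for. The deposited tables hold raw read counts for each transcript, unnormalized, and each library's counts sum to its mapped reads. Read lengths per transcript, another deposited column, were used as given per the file headers. The counting tool and its handling of reads that match several genes are not given in the sources used here.

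Counts were summed to genes by GENCODE M21 identifiers and tested with edgeR 4.0.16 (R 4.3.3). filterByExpr at a minimum count of 10 kept 6759 genes, TMM scaled the libraries, and the robust quasi-likelihood test with Benjamini-Hochberg adjustment over all 6759 genes was used at 0.05. Title and sex were fitted together, and 4 groups of title and sex gave within-sex values and the test between sexes. Adjusted p values are from this test unless another is named, and SE come from the fold and its F statistic. DESeq2 1.42.0, limma 3.58.1 voom, other scaling, filters, thinned reads and left-out libraries were alternatives. The fit was tested on simulated data. Coding and promoter sequences were aligned with Biopython; promoters are from RefSeq on GRCm38.p6.

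The members and lists were chosen with earlier results of these data known. Named genes are all members, up to 4 called genes per list and comparison by adjusted p, and the 3 genes most like each called member. Depth ranged from 545171 to 2593200 mapped reads, and counting intervals cover counting error only. Ces2d-ps was not analysed here.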

Additional observations from a re-analysis of the deposited data

Results flagged for a closer look

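Of 48 groups of 4 libraries examined for a value far from the others, 2 were flagged, and chance flags about 1 in 20. Ces1d stood at 849.9 CPM in O-titled replicate 4, a female, against 356 to 433 CPM in the other 3 O-titled livers. Without O-titled replicate 3, the other O-titled female, the Ces1d difference within females was 0.69 (edgeR adjusted p = 0.0203) and its difference between the sexes 1.12 (adjusted p = 0.0280), and neither was called with all libraries.

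Ces2c stood at 47.8 CPM in Y-titled replicate 1, a male, against 19.3 to 23.3 CPM in the other 3 Y-titled livers. Only 11 to 76 reads per library lie behind Ces2c.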

How the results depend on the processing

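Ces3a was called lower in O-titled livers in all 15 alternatives, with log2 fold changes of -0.999 to -0.73, and lower in females in all 14. No filter on low counts gave 600 genes called between titles, 401 between sexes and 100 for the difference between them, and 1 member within males. Thinning to equal depth gave 70, 77 and 8 genes and left 3 members called between sexes, Ces1b (log2 fold change 1.08), Ces1e (-0.57) and Ces1g (0.55) being lost at adjusted p = 0.181, 0.337 and 0.181, with 4627 genes tested. Limma voom gave 15 genes for the difference between sexes.

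Without single libraries, genes called ranged from 154 to 294 between titles, 125 to 217 between sexes and 8 to 45 for their difference. Members called ranged from 4 to 6 between sexes, 0 to 1 for the difference, 0 to 1 within males and 1 to 2 within females. Log2 fold changes between titles near 0 changed sign without single libraries, from -0.15 to 0.05 for Ces1c, -0.36 to 0.056 for Ces1d, -0.082 to 0.030 for Ces1f, -0.33 to 0.0099 for Ces2a and -0.29 to 0.055 for Ces2e. Ces2e between sexes ran from -0.21 to 0.14 and Ces1d within females from -0.27 to 0.69. When thinned, Ces2a (0.054) and Ces2g (0.033) between titles and Ces2e between sexes (0.00083) changed sign. The cause was not tested.

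The replicate block gave 184 genes and 1 member called between titles, with Ces3a at adjusted p = 0.0238. Deviations of same-numbered libraries from their group and sex means correlated at -0.065 in males and -0.027 in females. With 2 libraries per title and sex these deviations mirror each other, so both replicates of a sex give the same value. Whether the numbers pair the animals beyond sex therefore cannot be told from them. Per kilobase, 8 of 10 members kept the rank they had in CPM, and Ces1g and Ces2e swapped. The fewest reads lie behind Ces2c, with 11 to 76 per library.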

Other observations

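The reads of Ces3a per 100 reads of Ces1c form a ratio within each library that needs no scaling between libraries. They were 7.48 and 13.1 in O-titled females and 23.2 and 26.7 in Y-titled females. In males they were 50.8 and 65.4 (O-titled) and 65.7 and 85.6 (Y-titled). Female ratios lay below male ones, and within females the titles were apart. In males the nearest values of the 2 titles, 65.4 and 65.7, were nearly equal, and whether they differ beyond counting error was not tested. Ces1c itself was called higher in females, so a sex gap in a ratio to Ces1c holds the differences of both genes. Reads of Ces1f per 100 reads of Ces1c were 11.2 and 12.0 in O-titled females and 10.6 and 11.7 in Y-titled females, against 23.5 and 29.5 in O-titled males and 21.8 and 30.3 in Y-titled males. These ratios were formed after the values were seen and were not tested.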
